A study of Magallana angulata with 9 samples.

Results

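The freezing, thawing and recovery step of larval cryopreservation was described in D-larvae of the Portuguese oyster, by setting cryopreserved larvae against larvae that had met the same cryoprotectants without being frozen. All libraries carrying these labels were taken, which gives 6 of the 9 libraries of the series, 3 cryopreserved and 3 cryoprotectant exposed. Both groups came from the same 3 larval pools, each bred from several males and females, so that library 1 of a group shares its pool with library 1 of the other. The cryopreserved larvae first spent 3 min at 4 °C in 10% dimethyl sulfoxide, 1% polyvinylpyrrolidone and 0.2 M sucrose, loaded in straws with 30000 larvae each, cooled to -35 °C, plunged into liquid nitrogen and kept there for 2 months. They were then thawed for 10 s at 37 °C, given a seawater bath of 1 h at room temperature, collected on a mesh and washed. The cryoprotectant exposed larvae had the same solution, time and temperature and were then diluted in seawater. Freezing, storage, thawing, the bath and the collection after it all lie between the groups and cannot be told apart. The fresh libraries of the same pools, which had no cryoprotectant, took no part in the comparison and are given only for orientation.

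The D-larva is the first shelled stage of an oyster. It swims and gathers food with the ciliated velum, closes its valves with larval muscle and secretes shell from the mantle. During freezing, ice that forms outside the cells draws water out of them, and ice inside the cells ruptures membranes. Dimethyl sulfoxide enters cells and lowers the amount of ice, while sucrose and polyvinylpyrrolidone stay outside. Sucrose draws water out of the cells before they freeze. After thawing, cells face the return of water, rewarming and oxidative stress within minutes, and those that survive can alter the messenger RNAs they make and degrade.

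The 6 libraries held between 22367780 and 45990672 estimated counts. Each cryopreserved library, with 24440543 counts at most, was shallower than each cryoprotectant exposed library, with 33643297 counts at least. A count of 0 allowed up to 3 counts, which is at most 0.134 CPM (counts scaled to a common library total) in the cryopreserved and at most 0.0892 CPM in the exposed libraries, for counting error only. Of the 28372 genes listed, 22245 had 5 or more counts in 3 or more of the 6 libraries and were tested. Genes are listed by number, and of these numbers 0 occur in the gene table used here. Therefore no gene function, pathway or cell type marker could be read, and the larval identity of the libraries was not checked against marker genes. Genes are grouped here by direction, size, level and behaviour in the pools. In RNA from whole larvae, fewer cells of a type and less RNA per cell cannot be told apart.

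A sizeable part of the transcript pool differed between cryopreserved and cryoprotectant exposed larvae. A total of 990 genes were called differentially expressed, past both an adjusted p-value of 0.05 and a log2 fold change of 1.5 in size, in edgeR's quasi-likelihood test with pools paired. They make up 4.45% of the genes tested. Of these, 357 genes (1.60%) were upregulated and 633 genes (2.85%) downregulated in cryopreserved larvae. Without the pairing by pool the test called 547 genes, 206 upregulated and 341 downregulated, and 537 of them were among the 990. Without pool 1 there were 231 upregulated and 665 downregulated genes. When the change was tested against the threshold of 1.5 itself, with edgeR's glmTreat, 190 genes passed, 35 upregulated and 155 downregulated. With pools paired, the p-values rest on how far the within-pool change varied over 3 pools, and not on how far the pools differed in level. The test also draws the spread of each gene towards that of the other genes, so a p-value does not measure the gene's own spread alone.

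In the fit over the 3 pools, the downregulated side was deeper than the upregulated one, but pool 1 on its own ran the other way. The median log2 fold change was -2.37 over the genes called lower and 1.85 over those called higher. The within-pool differences of log2(CPM + 0.5) over the same lists had medians of -1.72 and 2.22 in pool 1, -2.38 and 1.37 in pool 2, and -2.15 and 1.52 in pool 3. A log2 fold change past 3 in size was found for 193 downregulated genes, which is 30.5% of them, and for 32 upregulated genes, which is 8.96%. Without pool 2, where the numbers moved most, 127 downregulated and 50 upregulated genes were past 3. Under library size scaling in place of TMM the numbers past 3 were 221 and 31.

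Smaller changes were shared more evenly between the directions. Whatever the fold change, 3223 genes (14.5%) passed the adjusted p-value of 0.05, and of them 1641 (7.38%) were higher and 1582 (7.11%) lower in cryopreserved larvae. Of the genes that passed the test but not the fold threshold, 1284 were higher and 949 lower. This balance rests on the scaling, since with library size only the log2 fold changes of all genes had a median of -0.13, with 1060 genes higher and 2109 lower at any fold change. At both thresholds, library size only gave 256 upregulated and 714 downregulated genes.

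**Figure D1:**
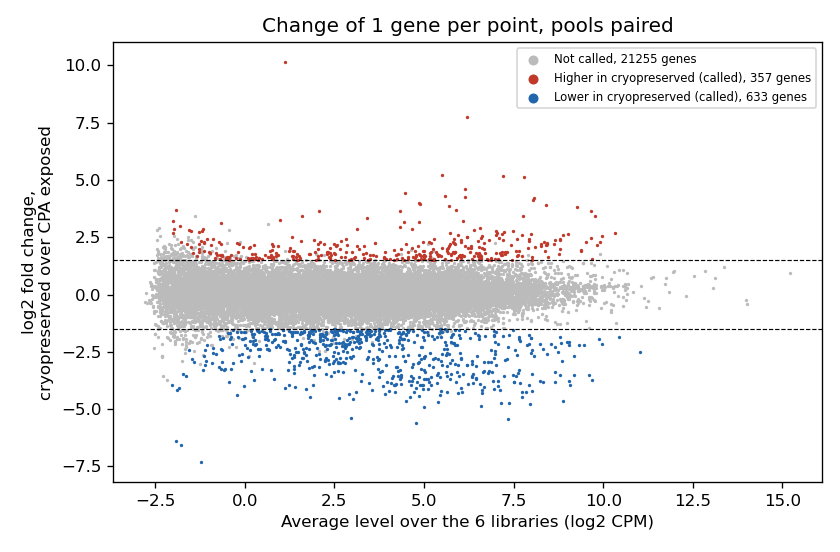
Log2 fold change of each gene, cryopreserved over cryoprotectant exposed larvae, against its average level in log2 CPM over the 6 libraries. Red points are the 357 genes called higher, blue points the 633 called lower, grey points the genes not called, and the dashed lines mark 1.5 on either side of 0. Below -3 the blue points spread over a wide range of levels, while few red points lie above 3.

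Called genes were found at every level of expression. Among the 1961 genes with a mean of 100 or more normalized CPM, 77 (3.93%) were upregulated and 92 (4.69%) downregulated. Of the 9083 genes between 10 and 100 CPM, 138 (1.52%) were upregulated and 240 (2.64%) downregulated. Between 1 and 10 CPM, 93 (1.28%) of 7267 genes were higher and 241 (3.32%) lower. Under 1 CPM, 49 (1.25%) of 3934 genes were higher and 60 (1.53%) lower. The standard error of a log2 fold change had a median of 0.18, 0.17, 0.24 and 0.52 in these classes, so the same change passed the test less easily at the lowest level. The surplus of downregulated over upregulated genes was widest between 1 and 10 CPM, and these shares were not compared by a test. Of the 990 called genes, 24 had 3 or fewer counts in each library of a group, and their fitted fold changes are not bounds.

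The called genes gained and lost a measurable share of each library. The 357 upregulated genes took 5.20%, 4.44% and 5.41% of the counts in cryopreserved larvae of pools 1, 2 and 3, against 0.778%, 1.30% and 1.52% in cryoprotectant exposed larvae. The 633 downregulated genes took 1.73%, 0.603% and 1.02% of the counts in cryopreserved larvae, against 6.70%, 6.30% and 7.31% in cryoprotectant exposed larvae. The groups do not overlap in either list, which is built in, since the lists were chosen on these libraries. The mean gain was 3.82 percentage points and the mean loss -5.66 percentage points. Within each list the 10 genes that moved most carried 30.2% of the gain and 23.8% of the loss, so that most of either was spread over many genes. Fresh larvae, which chose neither list, held 1.07%, 1.46% and 1.52% of their counts in the upregulated and 5.71%, 5.28% and 5.87% in the downregulated genes. For both lists the fresh values lay nearer to the exposed than to the cryopreserved libraries.

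The 193 genes with the deepest falls had a median of 29.0 CPM over the 6 libraries, and 138 of them stood at 10 CPM or more. Some of the others lay near the floor, where the fitted size is poorly determined. Rare genes pass the test less easily, so the test itself partly sets the level of such a list. The 193 genes held 0.347%, 0.0840% and 0.241% of the counts in cryopreserved larvae of pools 1, 2 and 3, against 2.69%, 2.61% and 3.20% in exposed larvae. The falls of 172 of them passed 1.5 in each of the 3 pools. The 440 other downregulated genes were rarer transcripts, with a median of 7.55 CPM, and 86 of them passed 1.5 in each pool. The 32 genes with the steepest rises had a median of 46.8 CPM and took 0.827%, 0.694% and 0.849% of the counts in cryopreserved larvae, against 0.0324%, 0.0669% and 0.0988% in exposed larvae.

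**Figure D2:**
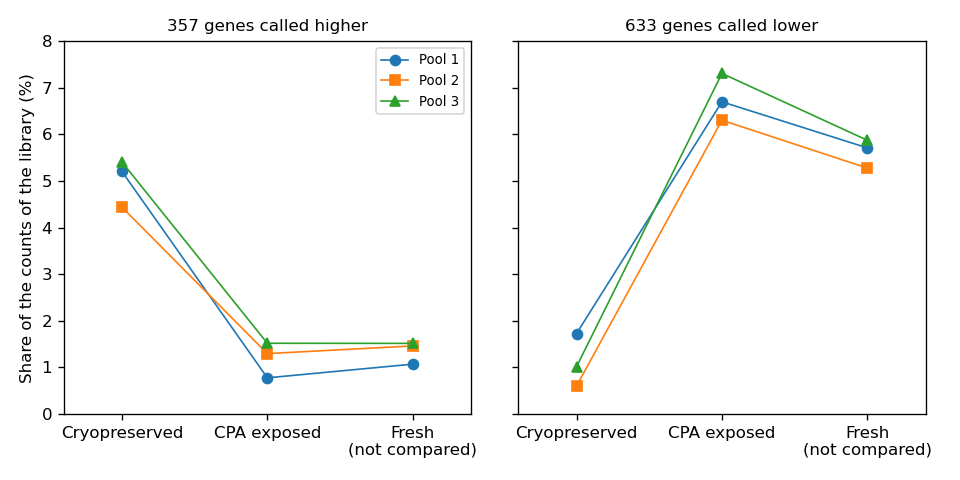
Share of the counts of each library, in percent, held by the 357 genes called higher (left) and the 633 called lower (right) in cryopreserved, cryoprotectant exposed and fresh larvae, with a line per pool. The upregulated genes hold 4.44% to 5.41% in cryopreserved and 0.778% to 1.52% in exposed larvae, and the downregulated genes 0.603% to 1.73% in cryopreserved and 6.30% to 7.31% in exposed larvae. Fresh libraries were not used to choose the genes.

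A few genes are named, all called, with the same sign in each of the 3 pools and 50 or more counts on average. They are the 2 upregulated and the 2 downregulated genes with the largest difference between the group means of CPM, that is, those which gained or lost most of the transcript pool. Since they were chosen on these libraries, a gap between the groups in these genes is largely built in and is given as description. Their levels are CPM normalized over the 9 libraries, and their functions are not given in the sources used here.

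Gene 105345814 gained most. It had 1966, 2761 and 2017 CPM in cryopreserved larvae of pools 1, 2 and 3, against 177, 458 and 486 CPM in cryoprotectant exposed larvae. The lowest cryopreserved library was thus far above the highest exposed one. In level it stood at place 19 of all genes in cryopreserved larvae and at place 334 in exposed larvae. The log2 fold change was 2.70 with a standard error of 0.28 and an adjusted p-value of 0.0031 (edgeR's quasi-likelihood test), a 6.50-fold rise. Tested against 1.5 itself with edgeR's glmTreat, its adjusted p-value was 0.0551 and the call was lost (the alternatives ran between 1.06e-18 and 0.0551). Fresh larvae had 246, 455 and 340 CPM.

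Gene 105349020 rose more steeply. Its levels were 1632, 1839 and 1458 CPM in cryopreserved larvae and 112, 133 and 228 CPM in exposed larvae, without overlap. It came to place 37 in cryopreserved larvae, against place 1052 in exposed larvae. The log2 fold change was 3.45 with a standard error of 0.27 and an edgeR adjusted p-value of 0.00172, a 10.9-fold rise. Its 3 cryopreserved libraries were close to each other, at 1643 ± 191 CPM (SD, n = 3).

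Gene 105318674 lost most of the pool, and its loss differed between the pools. It had 1413, 290 and 535 CPM in cryopreserved larvae, against 4556, 2439 and 3569 CPM in exposed larvae, where it stood at place 12 of all genes. The groups do not overlap, but the cryopreserved libraries spread widely, at 746 ± 591 CPM (SD, n = 3). The log2 fold change was -2.51 with a standard error of 0.29 and an edgeR adjusted p-value of 0.00388, and the call was lost without the pairing by pool, at 0.089, and under glmTreat, at 0.112 (the alternatives ran between 1.32e-15 and 0.112). The within-pool differences were -1.68 in pool 1, -3.06 in pool 2 and -2.76 in pool 3 on the log2 scale.

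Gene 105340282 fell to nearly the same level in every pool. It had 618, 612 and 561 CPM in cryopreserved larvae, a mean of 597 ± 31.1 CPM (SD, n = 3), against 2726, 2724 and 1358 CPM in exposed larvae, a mean of 2269 ± 789 CPM (SD, n = 3). The exposed library of pool 3 was the low one, and fresh larvae of that pool, with 1058 CPM, were also below those of pools 1 and 2, with 1954 and 2125 CPM. The log2 fold change was -1.86 with a standard error of 0.23 and an edgeR adjusted p-value of 0.00462. With its size close to the threshold, the gene was not called by glmTreat, where the adjusted p-value was 0.985 (the alternatives ran between 4.74e-12 and 0.985). It went to place 203 in cryopreserved larvae, against place 20 in exposed larvae.

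**Figure D3:**
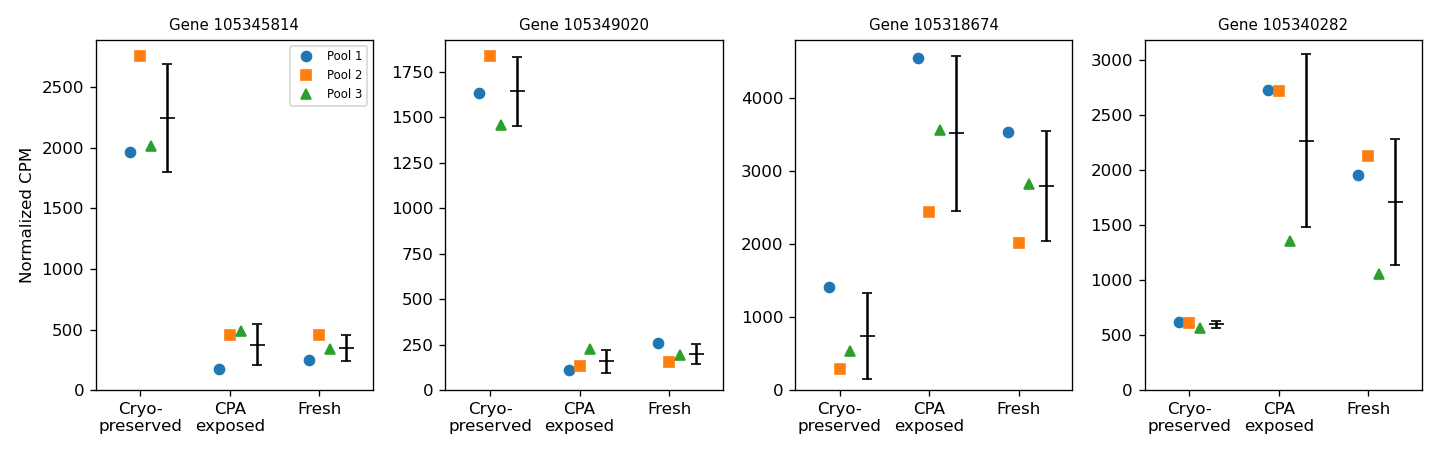
Normalized CPM of the named genes in cryopreserved, cryoprotectant exposed and fresh larvae, with a point per library, the symbol giving the pool, and the mean with its SD (n = 3) beside the points. For each of these genes the cryopreserved and exposed libraries do not overlap, which the choice on these libraries largely fixes. The fresh libraries lie closer to the exposed ones.

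The response was shared by the pools. The 3 within-pool differences of log2(CPM + 0.5), which have no library in common, correlated across the 22245 genes with r = 0.660 (rho = 0.572) for pools 1 and 2, r = 0.666 (rho = 0.556) for pools 1 and 3 and r = 0.741 (rho = 0.577) for pools 2 and 3. Over the 17237 genes with a mean of 50 or more counts r was 0.690, 0.700 and 0.783. Genes are not independent replicates, and these values describe the pools. Of all genes tested, 53.4% had the same sign of change in each of the 3 pools. Among the called genes it was 355 of the 357 upregulated and all 633 downregulated ones, which the choice largely fixes. Past 1.5 in each of the 3 pools were 94 upregulated and 258 downregulated genes, all of them called.

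A reading that the choice of genes does not fix was had by calling genes in a pair of pools and reading them in the pool left out. Of the 231 genes called higher without pool 1, 229 (99.1%) were also higher in cryopreserved larvae of pool 1, and 171 (74.0%) rose there past 1.5. Over all genes tested, 50.2% were higher in pool 1 and 2.78% were past 1.5. Without pool 2, 391 genes were called higher, of which 379 (96.9%) were also higher in pool 2 and 129 (33.0%) past 1.5, against 49.4% and 0.827% of all genes. Without pool 3 the numbers were 336 (99.1%) and 141 (41.6%) of 339 genes, against 48.8% and 1.06% of all genes.

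The falls were repeated in the same way. Of the 665 genes called lower without pool 1, 625 (94.0%) were lower in pool 1 and 312 (46.9%) past 1.5, against 49.7% and 2.81% of all genes. Of the 501 genes called lower without pool 2, 500 (99.8%) were lower in pool 2 and 383 (76.4%) past 1.5, against 50.2% and 3.17% of all genes. Of the 603 genes called lower without pool 3, 577 (95.7%) were lower in pool 3 and 353 (58.5%) past 1.5, against 51.1% and 2.54% of all genes. The libraries of the pool left out entered the normalization but not the calls.

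**Figure D4:**
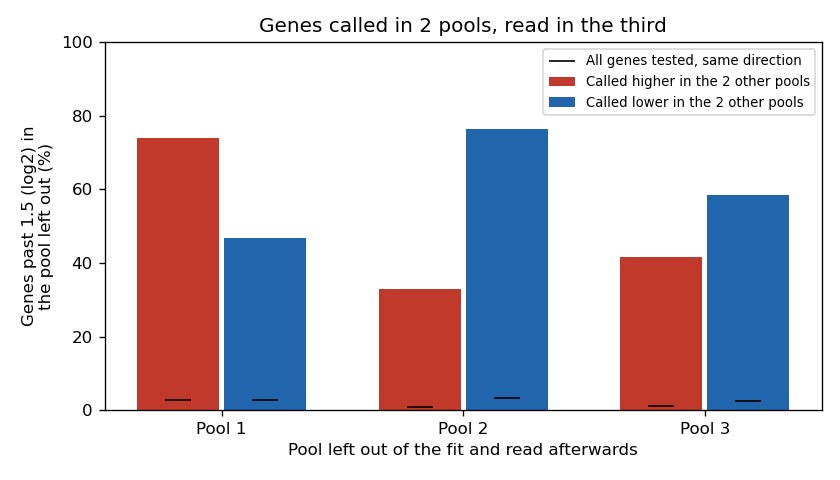
Share of genes, in percent, that were past 1.5 on the log2 scale in a pool left out of the fit, for genes called higher (red) or lower (blue) in the 2 other pools, with the same share over all genes tested as a black mark. Rises are largest in pool 1 (74.0%) and falls in pool 2 (76.4%), and the marks lie between 0.827% and 3.17%.

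The pools differed in how evenly rises and falls were balanced. In pool 1, 619 genes were more than 1.5 higher and 624 more than 1.5 lower in cryopreserved larvae. In pool 2 the numbers were 184 and 706, and in pool 3 they were 236 and 565. These numbers rest on the scaling, which moved the pools unequally. The TMM factors of the cryopreserved and the exposed library were 1.005 and 1.004 in pool 1. They were 0.883 and 1.004 in pool 2, and 0.991 and 1.128 in pool 3, and the part of scaling was not tested. The rises read in the pool left out had a median of 2.30 in pool 1, 1.20 in pool 2 and 1.37 in pool 3 on the log2 scale. The falls had a median of -1.41 in pool 1, -2.70 in pool 2 and -1.92 in pool 3. Each of these medians is over a different list, the genes called without that pool, so list and pool are not told apart. With 1 library per pool and condition, a difference between pools has no replicate and was not tested.

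The larger rise of pool 1 went with a low level in its exposed library. A change is the cryopreserved minus the exposed level, so such a statement describes its parts and is no separate association. The 231 genes called higher without pool 1 had a median level of 6.17, 5.81 and 6.16 on the scale of log2(CPM + 0.5) in cryopreserved larvae of pools 1, 2 and 3, against 3.57, 4.16 and 4.09 in exposed larvae. After thawing pool 1 was level with pool 3 and above pool 2, and in exposed larvae it was below both. The fresh libraries, with 3.91, 4.23 and 4.08, had pool 1 lowest as well. The larger fall of pool 2 went with a low level in its cryopreserved library. The 501 genes called lower without pool 2 had median levels of 2.56, 1.60 and 2.19 in cryopreserved larvae of pools 1, 2 and 3, against 4.84, 4.56 and 4.65 in exposed larvae and 4.47, 4.23 and 4.26 in fresh larvae. Pool 2 was thus lowest in exposed and fresh larvae as well, by less than in cryopreserved larvae. The study reports a lower mapping rate for each cryopreserved library than for the exposed library of its pool. The cryopreserved library of pool 2 had the lowest rate of the 9 libraries, and the part of mapping was not tested.

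**Figure D5:**
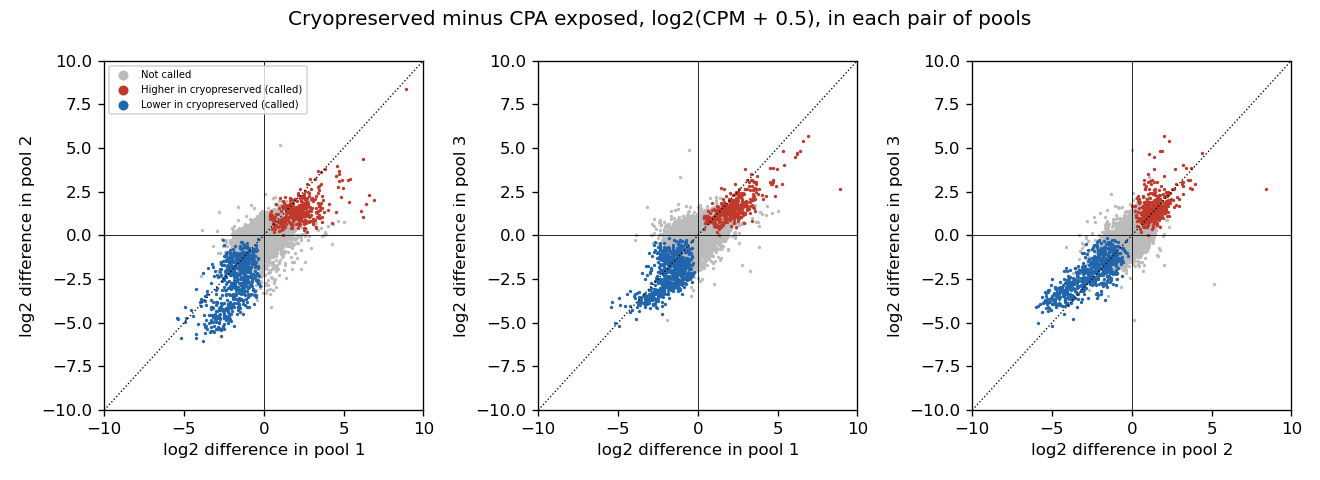
Within-pool differences of log2(CPM + 0.5), cryopreserved minus cryoprotectant exposed larvae, of each gene in a pair of pools per panel, coloured by the call of the paired test, with the line of equal change dotted. Genes called higher (red) lie towards pool 1, with a median of 2.22 there against 1.37 and 1.52 in pools 2 and 3. The genes called lower (blue) reach furthest down in pool 2. Among all genes tested, called or not, 619 were above 1.5 in pool 1, against 184 and 236 in pools 2 and 3.

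After cryopreservation the pools were less even in the downregulated genes. Over these 633 genes the SD of log2(CPM + 0.5) between pools had a median of 0.62 in cryopreserved and 0.39 in exposed larvae. For the 357 upregulated genes the medians were 0.38 and 0.40, and for all genes tested 0.31 and 0.29. In 35.1% of the downregulated genes the pools were more even in cryopreserved than in exposed larvae, and in 45.2% of all genes tested. Since a lower count spreads more on the log scale, the level of these genes moves with this spread, and its part was not tested.

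To turn the exposed library of a pool into its cryopreserved library, 21.2%, 18.7% and 18.0% of the counts would have to pass from gene to gene in pools 1, 2 and 3. Between cryopreserved libraries of different pools the figure was 14.1% to 17.4%, and between exposed libraries 13.1% to 17.5%. The step thus changed a pool somewhat more than the pools differed from each other. Between the exposed and the fresh library of a pool it was 5.01%, 5.94% and 5.05%, below the value of the step in each pool, but both distances use the same exposed libraries. No test was made on these distances.

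No consistent loss of detected genes was found. Genes with at least 1 count were compared as the numbers expected at the depth of the smallest library. These were 24722, 23997 and 24344 in cryopreserved larvae of pools 1, 2 and 3, against 24457, 24201 and 24598 in exposed larvae. The means were 24355 ± 362 in cryopreserved and 24418 ± 201 in exposed larvae (SD, n = 3), and pool 1 moved the other way from pools 2 and 3. A 2-sided exact sign-flip permutation test gave p = 1, where 3 pools cannot give a p below 0.25. The 100 most abundant genes of a library took 24.9%, 30.5% and 25.4% of the counts in cryopreserved larvae, against 26.6%, 22.9% and 20.1% in exposed larvae. The mean difference was 3.70 percentage points, with p = 0.5 by the same exact test, which has the same lowest p, and pool 1 again went against the others. It was 6.42 percentage points without pool 1 and 1.76 without pool 2.

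Of the transcripts that dominate fresh larvae, those called all fell. Of the 100 genes with the highest mean share in fresh larvae, libraries outside this comparison, 13 were called downregulated and 0 upregulated, against 4.69% and 3.93% of the genes tested with 100 CPM or more, and 2.85% and 1.60% of all genes. A choice by level in fresh larvae leaves out genes that became abundant only after freezing, so it favours falls, and nothing is read from the direction. At any fold change, edgeR's adjusted p-value was under 0.05 for 8 higher and 15 lower genes of the 100, and its unadjusted p-value for 18 higher and 21 lower genes. DESeq2 and limma-voom also called 0 of the 100 upregulated. Their log2 fold changes ran from -3.76 to 1.25, with a median of 0.19. Among the 100 most abundant genes of cryopreserved larvae were 73 of them, and among those of exposed larvae 93.

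For most genes the data set no tight limit on the change. A total of 19022 genes did not pass the test at any fold change, and a p-value over the threshold does not show that they were stable. The 95% confidence interval of the log2 fold change lay within 0.5 of 0 for 2432 genes, 10.9% of those tested. Of them, 0 had an unadjusted p-value under 0.05 in edgeR and 0 an adjusted p-value under 0.05 in edgeR, DESeq2 or limma-voom. With standard errors of this size such an interval nearly always includes 0, so the edgeR values are no separate check. The 2432 genes had a median of 969 counts per library, against 313 over all genes tested. Between 10 and 100 CPM 21.3% of the genes were bounded in this way, at 100 CPM or more 14.2%, between 1 and 10 CPM 2.96% and under 1 CPM 0%. The number was 2272 without pool 1, 57 without pool 2 and 0 without pool 3, so it depends on the pools taken. Fits with a pool left out also have fewer libraries from which to estimate the spread, and these parts were not told apart.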

How the data were processed

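Whole transcriptomes of D-larvae were sequenced, and 6 of the 9 libraries were compared here. After cleaning the reads and mapping them to a Crassostrea gigas reference, the authors deposited estimated counts per gene, made with Salmon 1.1 and not normalized. Of the values in the 6 libraries, 37.3% are not whole, and all were rounded. Columns were assigned by the position and titles given in the labels, and 0 columns were left unmapped.

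Genes with 5 or more counts in 3 or more of the 6 libraries were kept. They held 99.97% of the counts. TMM normalization and edgeR 4.0.16's quasi-likelihood test (R 4.3.3) were used on these libraries alone, with the pool as a block and Benjamini-Hochberg adjustment. Standard errors and intervals are Wald values of that fit. The study's methods state that every pool met all conditions. Taken as differences from the mean of their group, libraries with the same number correlated at r = 0.463, 0.669 and 0.721, and other pairs at -0.0915 or lower. Taking out the group mean pushes the other pairs towards negative values, so their sign is no separate check. Replicates of a group differed by more than sampling noise (chi-square over its degrees of freedom, 81.8 or more). CPM of the named genes and median levels of gene lists use TMM over 9 libraries. Genes named are, among those called with 1 direction over the 3 pools and 50 or more counts on average, the 2 higher and 2 lower with the largest difference in mean CPM. The comparison, rules and thresholds were chosen with earlier results of these data known. The fits were also run on simulated counts, where a changed gene had the same change in every pool, unlike in these data. Nothing is concluded here from that run. Alternatives were RLE, upper quartile and library size scaling, other filters, DESeq2 1.42.0, limma-voom 3.58.1, glmTreat, no block, 9 libraries, thinned counts, a threshold of 1 and each pool left out. Gene lists by function were not used, since the gene numbers are not paired with names here.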

Additional observations from a re-analysis of the deposited data

How the results depend on the processing

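Without the replicate block, 547 genes were called, 206 higher and 341 lower in cryopreserved larvae, and the 95% interval lay within 0.5 of 0 for 798 genes. Counts were 190, 35 and 155 with glmTreat, which tests against the threshold of 1.5 itself, and 1945, 890 and 1055 with a threshold of 1. With a pool left out, 892 to 942 genes were called in all, 231 to 391 higher and 501 to 665 lower, while 0 to 2272 genes had the narrow interval. All 9 libraries with the block gave 4607 such genes. The median absolute log2 fold change of 0.35 was 0.41 without a filter, where genes with few counts enter. The other settings kept all 3 counts of called genes within 1.5 times. DESeq2 shared 950 of its calls with the 990, limma-voom 975 and counts thinned to the smallest total 940. The mean difference in genes expected at the smallest depth was -63.8 genes. It lay between -228 and 31.0 with a pool left out, turning to 5.99 without replicate 2 and 31.0 without replicate 3. Of the genes called higher in 2 pools, 98.2% kept their direction in the pool left out, and 95.8% with library size only. The percent of counts passing between genes was 19.3 on average and 18.6 without the 20 most abundant genes, an alternative chosen after seeing the data. The adjusted p-value under glmTreat, the highest of any alternative, was 0.0551 for gene 105345814 (lowest 1.06e-18), 0.112 for gene 105318674 (lowest 1.32e-15) and 0.985 for gene 105340282 (lowest 4.74e-12). Standard errors were widest under 1 CPM, and 981 genes were called from counts thinned to the smallest total.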
